A study of Homo sapiens with 8 samples.

Results

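The genes described here are 9 receptors and adhesion molecules that T cells use to leave the blood and to move through lymphoid organs: CXCR4, CCR7, CCR9, S1PR1, SELPLG, ITGA4, ITGB1, ITGAL and ITGB2. They were taken by symbol from a table of read counts for 61228 genes, and all 9 were present and passed the filter on low counts. The table holds RNA sequencing of 8 clones of RPMI-8402, an established human cell line from T-cell acute lymphoblastic leukaemia. Its NKX2-1 knockout group comprised the clones C12, C15, S04 and S36. The wild-type group comprised the clones WT10, WT13, WT28 and WT30. Every clone received no treatment and was grown in the same serum-containing medium. The study asked which transcripts differ once NKX2-1, a homeobox transcription factor, has been knocked out. Each library came from a different clone of a single line, so the spread between clones stands in for biological replication. Neither the kind of edit nor what separates C-named from S-named clones is given in the sources used here.

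Homing of a T cell proceeds in steps. Selectin ligands let the cell roll along the vessel wall, chemokine receptors then signal through inhibitory G proteins, and that signal shifts integrins to their binding state so that the cell arrests. Integrins are pairs of an alpha and a beta subunit: ITGA4 pairs with ITGB1 to make VLA-4, which binds VCAM-1 and fibronectin, and ITGAL pairs with ITGB2 to make LFA-1, which binds ICAM-1. CXCR4 and CCR7 guide cells towards bone marrow and lymph node ligands, CCR9 guides cells within the thymus and to the gut, and S1PR1 takes cells out of lymphoid organs along a gradient of sphingosine-1-phosphate. CXCR4 and CCR7 are also known for the retention of T-cell leukaemia cells in bone marrow and for their entry into the central nervous system.

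Library totals ran from 2730285 counts (C15) to 25423215 (C12) in knockout clones and from 18453947 to 22916424 in wild-type clones. Levels are given as CPM, each count divided by the TMM-scaled size of its library and brought to a common total, and intervals are exact 95% Poisson intervals that cover counting error only. The library of C15 stood apart. It was the shallowest, so that 3 counts equalled 1.21 CPM against 0.116 CPM in C12, and 21.2% of its counts were mitochondrial, against 14.8% to 18.5% in the other knockout clones and 12.9% to 15.1% in wild-type clones. Transcripts of NKX2-1 were at 72.0, 11.3, 83.6 and 33.4 CPM in C12, C15, S04 and S36, against 56.9 ± 4.40 CPM in wild-type clones (SD, n = 4), so this level does not check the knockout labels. All 13 T-lineage markers passed the filter on low counts, with summed levels of 1806 to 2354 CPM in knockout and 1850 to 2235 CPM in wild-type clones. These sums do not show each marker. CD5 was 37.1 to 71.2 CPM in knockout and 84.8 to 116 CPM in wild-type clones. CD7 was likewise lower in every knockout clone than in any wild-type clone. The groups overlapped for all other T-lineage markers. Myeloid markers summed to 1.15 to 3.68 CPM in knockout and 0.577 to 2.22 CPM in wild-type clones, with LYZ, FCGR3A and S100A8 at 0. B-cell markers summed to 8.07 to 15.8 CPM in knockout and 11.3 to 18.3 CPM in wild-type clones, with MS4A1 at 0. Endothelial, fibroblast and epithelial markers summed to 133 to 199 CPM in knockout and 96.2 to 146 CPM in wild-type clones, most of it PECAM1, which T cells also express, with COL1A2, COL3A1 and EPCAM at 0.

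CXCR4 was the member with the smallest p: its mRNA was lower in all 4 knockout clones than in any wild-type clone. None of the 9 members passed an adjusted p of 0.05 between knockout and wild-type clones in the edgeR quasi-likelihood test with Benjamini-Hochberg adjustment over 14243 genes, where 45 genes did (0.316%). At an unadjusted p under 0.05 the count was 1 of 9 members, against 2202 of all tested genes (15.5%). DESeq2 called 1 member (CXCR4) where it called 3.66% of all genes, and limma-voom called the same member where it called 0.66%. Without the filter on low counts edgeR also called CXCR4 alone of the members, where it called 1.85% of the genes kept. The fitted log2 fold change, knockout over wild type, was below 0 for 8 members and above 0 for ITGB1. The median was -0.22, against 0.02 over all tested genes, of which 47.8% were below 0. The signs of S1PR1, SELPLG and ITGAL turned when single clones were left out. That of ITGA4, whose value is the median, turned with an offset for each chromosome and clone. The spread of log2 CPM was larger among knockout than among wild-type clones for 9 of 9 members, as it was for 88.9% of all tested genes. The median SD of log2 CPM over all tested genes was 0.468 among knockout and 0.183 among wild-type clones.

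**Figure D1:**
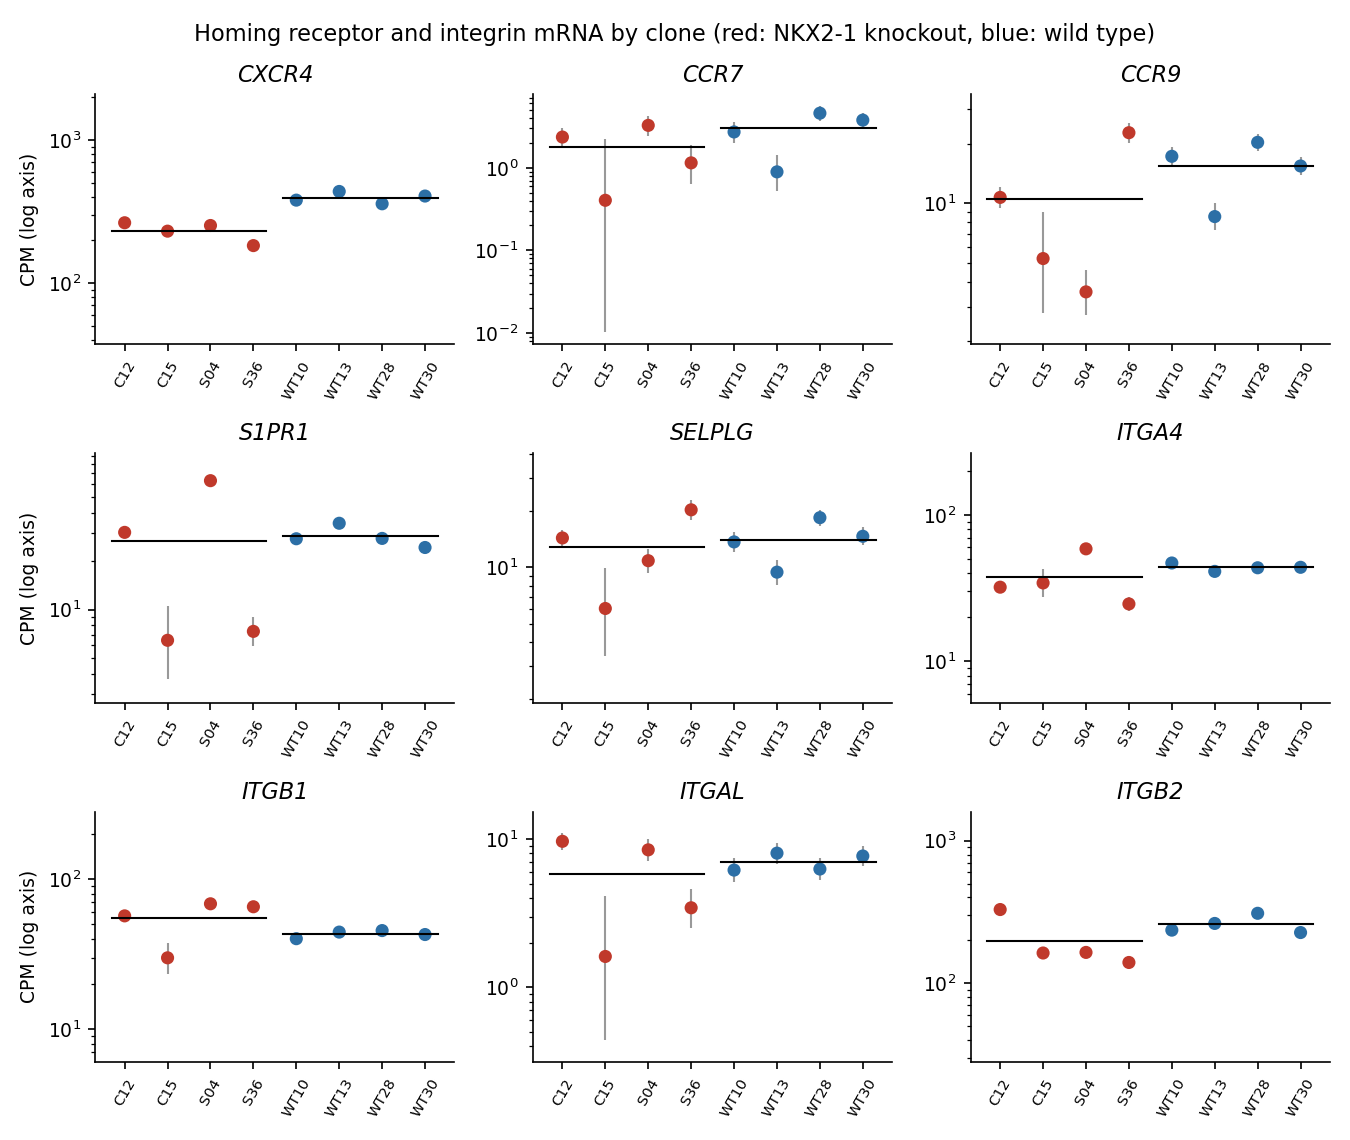
Level of each of the 9 genes (CPM, log axis) in the 4 knockout clones (red, left) and the 4 wild-type clones (blue, right), with the exact 95% Poisson interval of each library and the group mean as a black line. CXCR4 lay between 183 and 264 CPM in knockout clones, below every wild-type clone, whereas S1PR1 spread from 6.46 to 63.0 CPM in knockout clones around wild-type levels of 24.3 to 34.3 CPM.

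**Figure D2:**
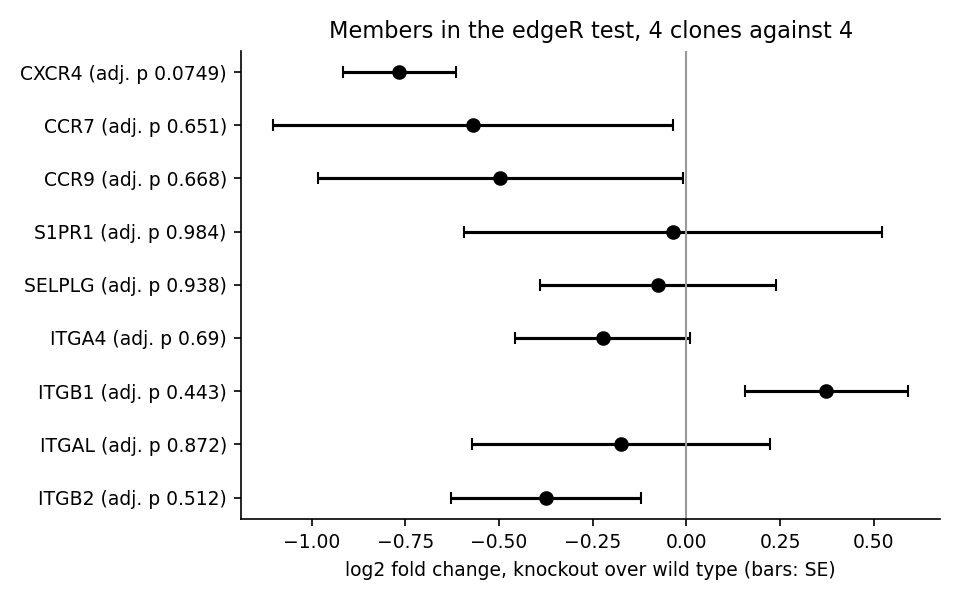
Fitted log2 fold change of each gene, knockout over wild type, with its standard error (bars) and its edgeR adjusted p, from 4 against 4 clones. The estimate for CXCR4 is -0.77 with a standard error of 0.15, and those for CCR7, CCR9 and S1PR1 have standard errors of 0.49 to 0.56.

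CXCR4 encodes the receptor for CXCL12, which holds lymphoid progenitors and leukaemia cells in bone marrow. It lies on chromosome 2 at 136114349 to 136118165 on the minus strand (hg38, GENCODE 29). Its level was 264, 231, 253 and 183 CPM in C12, C15, S04 and S36, against 381, 438, 359 and 407 CPM in WT10, WT13, WT28 and WT30. In bulk RNA, fewer cells with a transcript and less of it per cell cannot be told apart. The groups did not overlap; 5.62% of all tested genes were likewise lower in every knockout clone than in any wild-type clone, and 10.1% were separated in either direction. The mean was 233 ± 36.04 CPM in knockout and 396 ± 34.04 CPM in wild-type clones (SD, n = 4 each), a fitted ratio of 0.588. As a log2 fold change this was -0.77 (SE 0.15), with an edgeR adjusted p of 0.0749 that missed the threshold. It was -0.76 in DESeq2 (adjusted p = 6.16e-04) and -0.78 in limma-voom (adjusted p = 0.0461), both past it. Without C12 it was -0.84, with an edgeR adjusted p of 0.0300, in a comparison that called 3.13% of all genes. Without C15 it was -0.77, with an edgeR adjusted p of 0.0587.

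Of the 35114 human promoter windows compiled from RefSeq (GRCh38.p14, 250 bases before to 50 after each start), 9 belonged to members: 3 to CXCR4, a pair each to CCR9 and ITGB1, and 1 each to S1PR1 and ITGA4. Because the study's title names RUNX1 and NKX2-1, these windows were searched on both strands for the RUNX cores TGTGGT and TGCGGT and the NKX2-1 core CAAGTG. The first RUNX core was in 0 of 9 member windows and in 13.1% of all windows, and the NKX2-1 core was in 0 of 9 and in 11.5%. The second RUNX core was in 1 of 9 and in 7.29% of all windows. The window that holds it is that of a CXCR4 start, chr2:136117820-136118119 on the minus strand, shown 5′ to 3′ with the match, read on the opposite strand, in capitals at base 33. A match describes these letters and is no evidence of binding.
CXCR4: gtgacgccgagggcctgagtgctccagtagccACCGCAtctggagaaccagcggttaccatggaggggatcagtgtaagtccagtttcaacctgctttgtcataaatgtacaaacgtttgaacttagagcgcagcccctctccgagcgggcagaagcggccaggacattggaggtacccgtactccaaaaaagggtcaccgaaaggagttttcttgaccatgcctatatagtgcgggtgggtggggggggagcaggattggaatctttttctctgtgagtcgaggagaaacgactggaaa

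CXCR4 and ITGA4 both lie on chromosome 2, where most genes read lower in the knockout clones. Over 946 other tested genes of that chromosome, the median log2 difference from the wild-type mean was -0.34, -0.43, -0.36 and -0.24 in C12, C15, S04 and S36, and at most 0.03 in size in any wild-type clone. Over the 44 tested genes within 10 Mb of CXCR4 it was -0.35, -0.36, -0.49 and -0.49 in the same knockout clones. CXCR4 itself stood at -0.58, -0.77, -0.64 and -1.11, and so lay lower than its neighbours by a further -0.23, -0.41, -0.15 and -0.62 on that scale. With an offset for each chromosome and clone, the CXCR4 log2 fold change was -0.41, with an edgeR adjusted p of 0.310. The part of the chromosome-wide difference in the CXCR4 result was not tested further. ITGA4 stood at -0.45, -0.35, 0.42 and -0.83, around a median of -0.28, -0.40, -0.14 and -0.25 over the 83 genes within 10 Mb of it, and with the same offsets its log2 fold change was 0.13. No other member lay on a chromosome with such a difference in all 4 knockout clones, although genes within 10 Mb of ITGB1 on chromosome 10 had a median of 0.31 in S36.

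**Figure D3:**
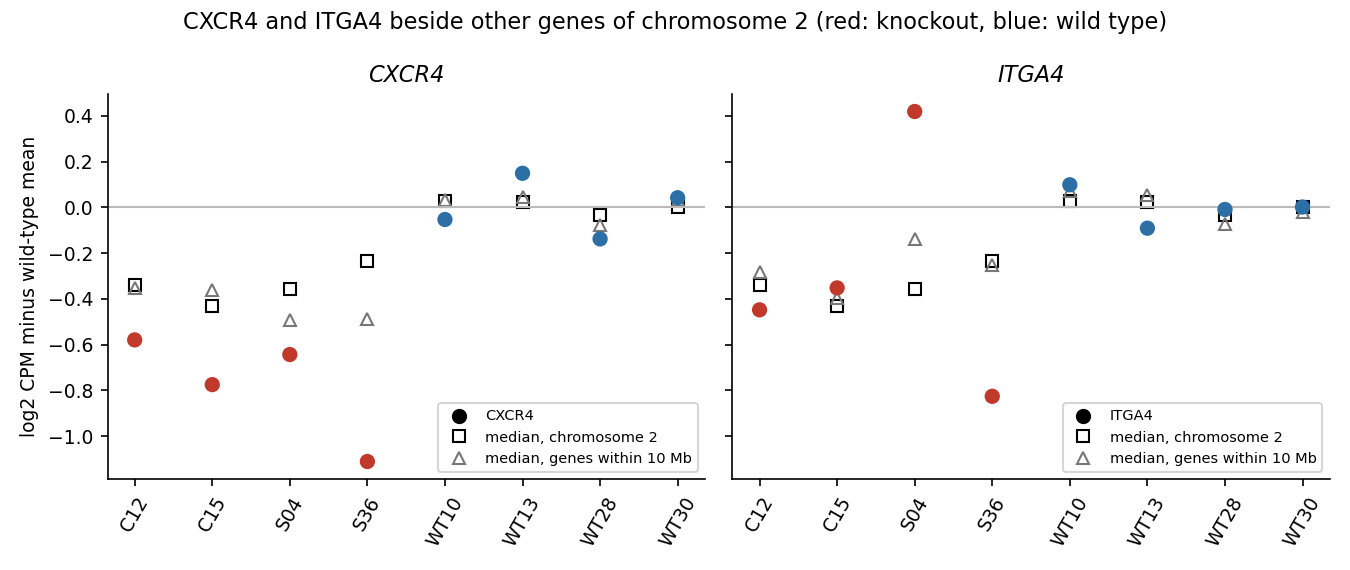
Log2 CPM minus the wild-type mean for CXCR4 (left) and ITGA4 (right) in each clone (filled, red knockout and blue wild type), beside the median of the other genes of chromosome 2 (squares) and of genes within 10 Mb (triangles). In knockout clones CXCR4 lay below both medians, at -0.58 to -1.11, while ITGA4 lay above both in S04 (0.42) and below both in S36 (-0.83).

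CCR7, the receptor for CCL19 and CCL21, which draws T cells into lymph nodes, was among the lowest members per kb of exon. It lies on chromosome 17 at 40553769 to 40565472. Its level was 2.35, 0.404, 3.26 and 1.15 CPM in C12, C15, S04 and S36, against 2.71, 0.892, 4.58 and 3.77 CPM in WT10, WT13, WT28 and WT30. The groups overlapped, and the value of C15 rested on 1 count, with an interval of 0.0102 to 2.25 CPM. Its log2 fold change was -0.57 (SE 0.53), with an edgeR adjusted p of 0.651. It was -0.93 without S04, -0.34 without S36, -0.89 without WT13 and -0.31 without WT28. CCR9, the receptor for CCL25, which is made in thymus and small intestine, lies on chromosome 3 at 45886504 to 45903177. It was 10.7, 5.25, 3.56 and 22.7 CPM in C12, C15, S04 and S36, against 17.2, 8.55, 20.3 and 15.4 CPM in WT10, WT13, WT28 and WT30. S36 was above and C15 and S04 were below every wild-type clone, so the knockout clones lay on both sides. For CCR9 the log2 fold change was -0.50 (SE 0.49), with an edgeR adjusted p of 0.668. Without S36 it was -1.18 and without S04 it was -0.17, neither past the threshold.

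S1PR1 showed no common direction in the knockout clones and the widest spread among them. The gene, on chromosome 1 at 101236865 to 101243713 on the plus strand, was at 30.1, 6.46, 63.0 and 7.34 CPM in C12, C15, S04 and S36, against 27.5, 34.3, 27.6 and 24.3 CPM in WT10, WT13, WT28 and WT30. C15 and S36 were below every wild-type clone, S04 was above every one, and C12 lay among them. The intervals were 3.69 to 10.5 CPM for the 16 counts of C15 and 5.94 to 8.96 CPM for the 96 counts of S36, both below the lowest wild-type value of 24.3 CPM. The SD of log2 CPM was 1.59 in knockout and 0.21 in wild-type clones (n = 4 each). Its log2 fold change was -0.04 (SE 0.56), with an edgeR adjusted p of 0.984. Its sign rested on single clones: it was 0.24 without C15, 0.29 without S36, 0.052 without WT13 and -0.85 without S04.

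The transcript S1PR1-DT starts 337 bases from S1PR1 on the opposite strand and runs away from it. It and KLF2, a zinc-finger factor known to activate S1PR1 in mouse T cells, were set beside S1PR1 after their values had been seen. S1PR1-DT was 7.95, 2.02, 16.2 and 3.90 CPM in C12, C15, S04 and S36, against 6.49, 8.50, 5.52 and 7.10 CPM in WT10, WT13, WT28 and WT30. Its highest clone was S04 and its lowest were C15 and S36, the same clones as for S1PR1, although C15 held only 5 counts. KLF2 was 21.5, 1.61, 88.4 and 10.4 CPM in C12, C15, S04 and S36, against 18.4, 9.34, 18.1 and 10.97 CPM in WT10, WT13, WT28 and WT30. S04 was again highest and C15 lowest, while S36 lay within the wild-type range. The KLF2 value of C15 lay near its floor of 1.21 CPM for 3 counts. Among wild-type clones the order differed, as WT13 was highest for S1PR1 and lowest for KLF2. A profile like that of S1PR1 was also common: 395 of 9445 genes had a Pearson correlation above 0.9 with it over the 8 clones. The log2 fold changes were 0.21 (SE 0.46) for S1PR1-DT and 1.15 (SE 0.73) for KLF2, with edgeR adjusted p of 0.862 and 0.485. Without S04 they were -0.43 and -0.20.

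The S1PR1 promoter window of RefSeq (GRCh38.p14) is chr1:101236769-101237068 on the plus strand. It is shown because S1PR1 starts within it, while its divergent transcript starts 241 bases from its first base, with the core letters of KLF sites, CACCC on either strand, in capitals at bases 109 and 131. That motif was also chosen after the values had been seen. It is common: 8 of 9 member windows and 59.9% of all 35114 windows hold it.
S1PR1: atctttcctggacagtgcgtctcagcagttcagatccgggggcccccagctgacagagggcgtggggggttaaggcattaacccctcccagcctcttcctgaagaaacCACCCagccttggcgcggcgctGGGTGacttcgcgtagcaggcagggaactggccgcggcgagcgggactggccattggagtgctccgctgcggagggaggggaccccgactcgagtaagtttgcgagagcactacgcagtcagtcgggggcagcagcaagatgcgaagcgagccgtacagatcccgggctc

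**Figure D4:**
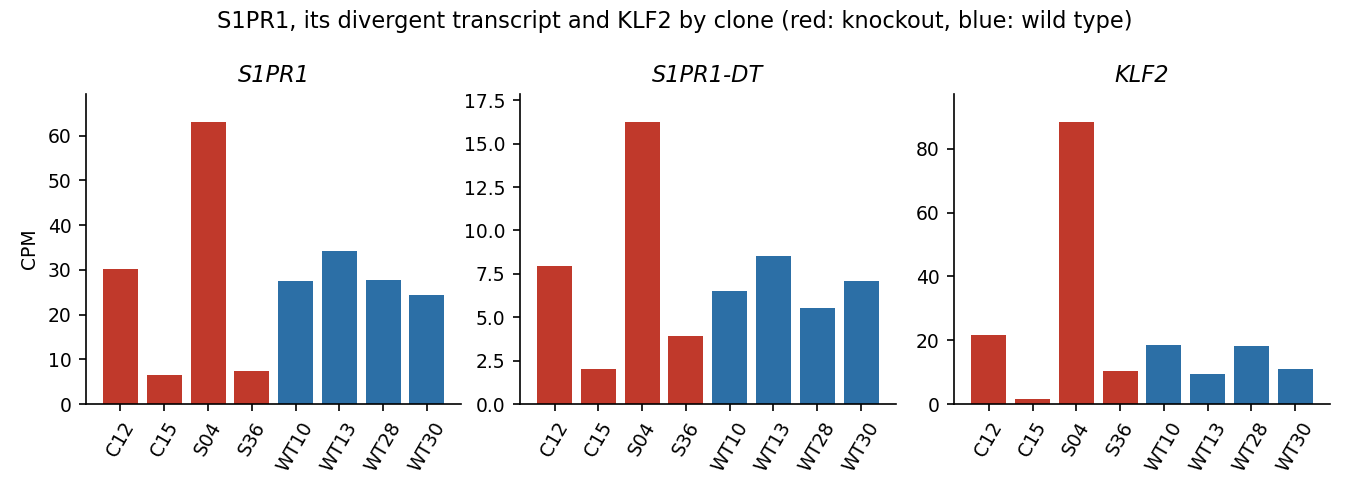
Level (CPM, linear axis from 0) of S1PR1, its divergent transcript S1PR1-DT and KLF2 in each knockout (red, left) and wild-type (blue, right) clone. S04 is the highest clone for all 3 transcripts. C15 has the lowest value for each, on 16 counts for S1PR1 and 5 for S1PR1-DT. Its KLF2 value is 1.61 CPM, where 3 counts equal 1.21 CPM. The 95% Poisson intervals of C15 and S36 overlap for S1PR1, so their order is not resolved. Among wild-type clones, WT13 is the highest for S1PR1 and the lowest for KLF2.

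SELPLG encodes PSGL-1, the ligand that P-selectin and, on suitably glycosylated cells, the other selectins bind; it is the only selectin-related member and is itself no selectin. The gene lies on chromosome 12 at 108622277 to 108633959. It was 14.4, 6.06, 10.9 and 20.2 CPM in C12, C15, S04 and S36, against 13.7, 9.44, 18.4 and 14.7 CPM in WT10, WT13, WT28 and WT30. C15 was below and S36 above every wild-type clone, and the other knockout clones lay within the wild-type range. The log2 fold change was -0.08 (SE 0.32), with an edgeR adjusted p of 0.938. It was 0.10 without C15, 0.026 without S04 and 0.068 without WT28, so that its sign too rested on single clones.

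Among the VLA-4 subunits, the alpha chain ITGA4 (chromosome 2, 181457202 to 181536187) was 32.1, 34.3, 58.6 and 24.7 CPM in C12, C15, S04 and S36, against 46.9, 41.1, 43.5 and 43.9 CPM in WT10, WT13, WT28 and WT30. C12, C15 and S36 were below every wild-type clone and S04 was above. Its log2 fold change was -0.22 (SE 0.23), with an edgeR adjusted p of 0.690. It was -0.54 without S04 and -0.064 without S36. The beta chain ITGB1, which also pairs with many other alpha chains, lies on chromosome 10 at 32900319 to 33005792. It was 56.9, 29.9, 68.5 and 65.4 CPM in C12, C15, S04 and S36, against 40.1, 44.3, 45.4 and 42.7 CPM in WT10, WT13, WT28 and WT30. C12, S04 and S36 were above every wild-type clone and C15 was below. For ITGB1 the log2 fold change was 0.37 (SE 0.22), with an edgeR adjusted p of 0.443. The processed pseudogene ITGB1P1 held 0 to 3 counts in any clone, and ITGB1 shared 42 exon bases with ITGB1-DT on the opposite strand.

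The LFA-1 subunits differed in level, with ITGAL at 0.894 and ITGB2 at 29.2 CPM per kb of exon in knockout clones, against 1.09 and 38.0 in wild-type clones. The alpha chain ITGAL (chromosome 16, 30472658 to 30523185) was 9.65, 1.61, 8.45 and 3.44 CPM in C12, C15, S04 and S36, against 6.17, 8.03, 6.27 and 7.68 CPM in WT10, WT13, WT28 and WT30. C15 and S36 were below and C12 and S04 above every wild-type clone, the value of C15 resting on 4 counts with an interval of 0.440 to 4.13 CPM. The log2 fold change of ITGAL was -0.18 (SE 0.40), with an edgeR adjusted p of 0.872, and was -0.51 without C12, -0.35 without S04, 0.033 without C15 and 0.056 without S36. ITGAL shared 415 and 204 exon bases with a pair of antisense genes. The beta chain ITGB2, common to the leukocyte integrins, lies on chromosome 21 at 44885953 to 44931989. It was 329, 163, 164 and 140 CPM in C12, C15, S04 and S36, against 236, 262, 309 and 227 CPM in WT10, WT13, WT28 and WT30. C15, S04 and S36 were below every wild-type clone, while C12 was above every one. For ITGB2 the log2 fold change was -0.38 (SE 0.25), with an edgeR adjusted p of 0.512, and was -0.24 without S36. Without C12 it was -0.74 with an edgeR adjusted p of 0.0415, in a comparison that called 3.13% of all genes. ITGB2 shared 303 exon bases with ITGB2-AS1, which averaged 6.79 ± 2.71 CPM in knockout and 7.10 ± 2.73 CPM in wild-type clones (SD, n = 4 each). The strand setting of the counting is not given in the sources used here, so reads in these shared bases cannot be told apart.

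A ratio of the counts of both subunits within a clone does not depend on the scaling of the library. For ITGA4 over ITGB1 the log2 ratio was -0.82, 0.20, -0.22 and -1.40 in C12, C15, S04 and S36, against 0.23, -0.11, -0.06 and 0.04 in WT10, WT13, WT28 and WT30. The knockout values were spread widely, with C12, S04 and S36 below and C15 within the wild-type range. The mean was -0.56 ± 0.70 in knockout and 0.02 ± 0.15 in wild-type clones (SD, n = 4 each), a difference of -0.59 with p = 0.171 in an exact two-sided permutation test. The 70 ways to divide the clones allow no p under 0.0286. Adjusted over both ratios, p was 0.343 by the Benjamini-Hochberg method on the exact p-values. Without C15 the difference was -0.84, with an exact p of 0.0286, the smallest that 7 clones allow. ITGA4 lies on chromosome 2, where most genes read lower in the knockout clones. Genes within 10 Mb of ITGB1 had a median log2 difference of 0.31 in S36. With an offset for each chromosome and clone, the ITGA4 log2 fold change was 0.13. The ratio was not adjusted for such regional differences, and their part in it was not tested. For ITGAL over ITGB2 the mean log2 ratio was -5.29 ± 0.91 in knockout and -5.19 ± 0.32 in wild-type clones (SD, n = 4 each), a difference of -0.10 with an exact p of 0.829. C15 had the lowest ratio, -6.49, and S04 the highest, -4.28. Without C15 the difference was 0.30, with an exact p of 0.486.

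**Figure D5:**
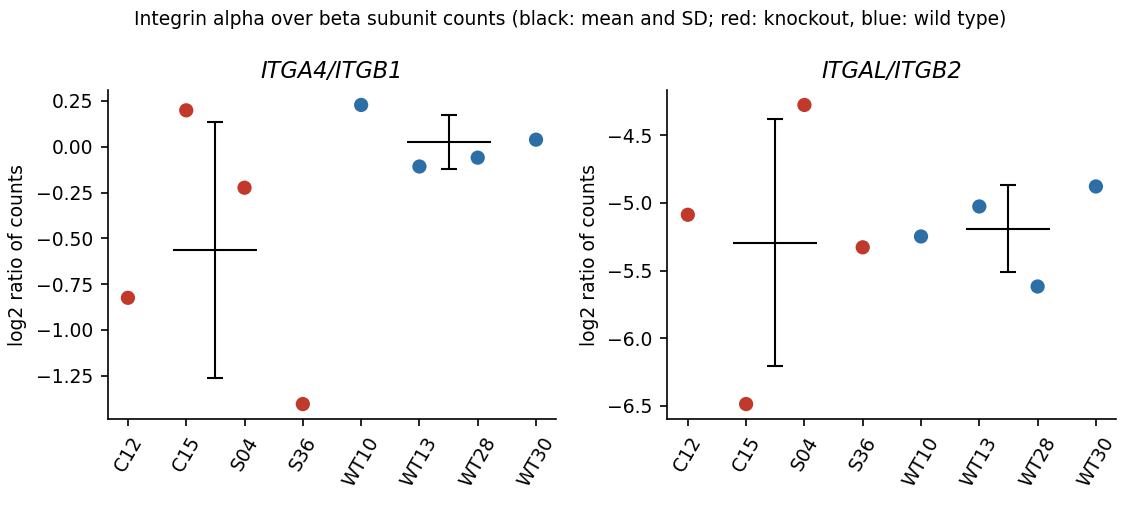
Log2 ratio of alpha over beta subunit counts in each knockout (red, left) and wild-type (blue, right) clone for ITGA4/ITGB1 and ITGAL/ITGB2, with the mean and SD of each group in black. For ITGA4/ITGB1 the knockout clones run from -1.40 to 0.20 around a mean of -0.56, and the wild-type clones from -0.11 to 0.23.

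Levels of different genes were compared as CPM per kb of annotated exon. CXCR4 was highest, at 105 CPM per kb in knockout and 178 in wild-type clones, followed by ITGB2 at 29.2 in knockout and 38.0 in wild-type clones. ITGB1 was next, at 9.18 CPM per kb in knockout and 7.17 in wild-type clones. The ranges of CXCR4, ITGB2 and ITGB1 did not touch within either group. Below ITGB1 came SELPLG, S1PR1, ITGA4 and CCR9, with means of 5.16, 5.12, 4.74 and 3.76 CPM per kb in knockout clones and 5.63, 5.45, 5.55 and 5.47 in wild-type clones, and neighbours among them overlapped in both groups. ITGAL and CCR7 were lowest, at 0.894 and 0.714 CPM per kb in knockout clones and 1.09 and 1.19 in wild-type clones. In wild-type clones their ranges lay apart from that of S1PR1, while in knockout clones every neighbouring pair from ITGB1 down overlapped. With the length of principal transcripts in place of all exons, S1PR1 moved up to rank 4 and SELPLG down to rank 6 in both groups.

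The knockout clones carry a C or an S in their names, and the members were also compared between these pairs, C-named minus S-named, in a fit with 3 groups. None of the 9 members passed the threshold in edgeR, where 51 of 14243 genes did (0.358%), nor in DESeq2 (4.57% of genes) or limma-voom (0.625%). At an unadjusted p under 0.05 there were 2 members in edgeR, ITGB2 and ITGB1, beside 2440 of all tested genes (17.1%). The wild-type clones entered the estimate of spread in that fit. Their median SD of log2 CPM over all tested genes was 0.183, against 0.468 among knockout clones. The p-values of this comparison thus rest in part on the smaller spread of clones outside it. ITGB2 was 329 and 163 CPM in C12 and C15, against 164 and 140 CPM in S04 and S36, a log2 difference of 0.70 (SE 0.29) with an edgeR adjusted p of 0.265. Without C12 that difference was 0.096, and without the filter on low counts ITGB2 passed with an edgeR adjusted p of 0.0342, where 2.43% of genes did. ITGB1 was 56.9 and 29.9 CPM in C12 and C15, against 68.5 and 65.4 CPM in S04 and S36, a log2 difference of -0.59 (SE 0.25) with an edgeR adjusted p of 0.280. Without C12 that difference was -1.17, with an edgeR adjusted p of 0.0286, in a fit that called 5.14% of all genes. That fit leaves C15 as the lone C-named clone, which is assumed to vary like the other groups. Set against wild type alone, the S-named clones had 3 members past the threshold in edgeR: CXCR4 (-0.87, adjusted p = 0.0119), ITGB2 (-0.78, adjusted p = 0.0177) and ITGB1 (0.62, adjusted p = 0.0139). That comparison called 14.5% of all genes. The C-named clones alone had none, in a comparison that called 0.0395% of genes, although 2 members had an unadjusted p under 0.05. The C-named comparison included the shallow library C15.

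Other genes of the homing pathway were drawn from 6 lists of 134 genes, of which 91 were tested. None passed an adjusted p of 0.05 in either direction in edgeR. At an unadjusted p under 0.05 there were 21 of the 91, a larger share than the 15.5% of all tested genes. The lists had been chosen with earlier results of these data known. DESeq2 called 8 of the 91 and limma-voom called 1, where they called 3.66% and 0.66% of all genes. Their log2 fold changes were above 0 for 53 genes and below 0 for 38, with a median of 0.06, against 0.02 over all tested genes. All knockout clones were below all wild-type clones for 5 of the 91 genes and above them for 10, where 5.62% and 4.44% of all tested genes were. Among 7 tested chemokine and lipid chemoattractant receptors, 5 were below 0 and the median was -0.58. S1PR2, a sphingosine-1-phosphate receptor that restrains migration, was 1.58, 2.83, 1.63 and 1.15 CPM in C12, C15, S04 and S36, against 5.06, 4.46, 3.73 and 4.13 CPM in WT10, WT13, WT28 and WT30. All knockout clones were thus lower; its log2 fold change was -1.41 (SE 0.30), with an adjusted p of 0.0919 in edgeR, 9.40e-04 in DESeq2 and 0.0461 in limma-voom. Without C15 it was -1.57, with an edgeR adjusted p of 0.0368, in a comparison that called 114 of 14722 genes. GPR183, an oxysterol receptor that positions lymphocytes, S1PR5 and the chemokine receptor CCR8 had log2 fold changes of -1.26, -0.58 and -0.86, with overlapping groups. Their edgeR adjusted p were 0.227, 0.587 and 0.602. These were low transcripts, at most 6.84 CPM in any clone. In C15 they were 0.404, 0 and 0.404 CPM, under its floor of 1.21 CPM for 3 counts. S1PR5 had -0.36 without C15, and CCR8 had -1.90 without C12 and -0.43 without S36.

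Among 8 tested further integrin subunits, 5 were above 0 and the median was 0.11. ITGA5, the fibronectin receptor chain that also pairs with ITGB1, was 48.1, 76.3, 59.2 and 59.98 CPM in C12, C15, S04 and S36, against 39.4, 47.4, 34.3 and 39.7 CPM in WT10, WT13, WT28 and WT30. All knockout clones were higher, with a log2 fold change of 0.59 and an adjusted p of 0.158 in edgeR and 0.04997 in DESeq2, just past the threshold in DESeq2. ITGB5, ITGA3 and ITGAE, the last of which binds E-cadherin, had log2 fold changes of -1.14, -1.15 and -0.30. Their groups overlapped, with edgeR adjusted p of 0.201, 0.251 and 0.562. ITGA3 was only 0.404 to 1.60 CPM in knockout and 1.46 to 2.77 CPM in wild-type clones, with C15 under its floor of 1.21 CPM for 3 counts. The log2 fold change of ITGAE was -0.49 without C12, -0.15 without C15 and -0.19 without S36. Among 17 tested selectin and adhesion genes, 12 were above 0 and the median was 0.22. GALNT1, an enzyme that starts mucin-type O-glycans of the kind SELPLG carries, was 48.8 to 83.1 CPM in knockout and 10.1 to 32.5 CPM in wild-type clones, without overlap. Its log2 fold change was 1.23, with an adjusted p of 0.138 in edgeR and 0.0135 in DESeq2. The adhesion receptors CD226 and PECAM1 had log2 fold changes of 1.19 and 0.46, with overlapping groups.

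Among 19 tested genes of inside-out integrin activation, 9 were above 0 and 10 below, with a median of -0.03. RAPGEF1, an exchange factor for Rap1, was 72.2 to 109 CPM in knockout and 54.9 to 65.9 CPM in wild-type clones, a log2 fold change of 0.57 with an adjusted p of 0.147 in edgeR and 0.0356 in DESeq2. It lies on chromosome 9, where the median log2 difference of 512 tested genes from the wild-type mean was 0.21, 0.37, 0.40 and 0.36 in C12, C15, S04 and S36. With an offset for each chromosome and clone, the log2 fold change of RAPGEF1 was 0.24, with an edgeR adjusted p of 0.495. RASGRP1, which activates Ras and Rap after T-cell receptor signals, was 43.3, 34.7, 27.3 and 14.98 CPM in C12, C15, S04 and S36, against 60.2, 49.0, 57.7 and 55.4 CPM in WT10, WT13, WT28 and WT30. All knockout clones were lower, with a log2 fold change of -0.89 and an edgeR adjusted p of 0.167. Without C12, RASGRP1 had -1.15 and an edgeR adjusted p of 0.0472, and RAPGEF1 had 0.66 and an edgeR adjusted p of 0.0477. That comparison called 3.13% of all genes. With any other clone left out, neither RASGRP1 nor RAPGEF1 passed the threshold. TLN2, a talin, was likewise lower in all knockout clones, with a log2 fold change of -0.84 and an adjusted p of 0.152 in edgeR and 0.0307 in DESeq2. SHARPIN, an inhibitor of integrin activation, had a log2 fold change of -0.45 with overlapping groups. Among 25 tested genes of receptor signalling and trafficking, 16 were above 0 and the median was 0.06. ELMO1, a partner of DOCK2 in Rac activation, and PIK3CD, the lymphocyte PI3-kinase catalytic chain, both had groups that did not overlap. ELMO1 was higher, with a log2 fold change of 0.58 and an adjusted p of 0.133 in edgeR and 0.0184 in DESeq2, and PIK3CD was lower, with -0.52 and adjusted p of 0.152 in edgeR and 0.0390 in DESeq2. RGS16 and RGS2, which dampen G-protein signals, had log2 fold changes of 1.95 and -0.50 at levels under 5 CPM. Their edgeR adjusted p were 0.236 and 0.380. RGS2 was lower in all knockout clones, while the groups overlapped for RGS16. Among 15 tested transcription factors known to control homing genes, 9 were above 0 and the median was 0.27. PRDM1, which represses homing genes in effector T cells of mice, was 0.458 to 4.29 CPM in knockout and 0.105 to 0.585 CPM in wild-type clones, with a log2 fold change of 2.53 and an adjusted p of 0.156 in edgeR and 0.0350 in DESeq2. S04 held the highest value, and without it the log2 fold change was 1.45, with an edgeR adjusted p of 0.310. HIF1A, CBFB (the partner of RUNX proteins) and FOXP1 had log2 fold changes of 0.57, 0.33 and 0.27. Their edgeR adjusted p were 0.250, 0.302 and 0.434. CBFB was higher in all knockout clones, while the groups overlapped for HIF1A and FOXP1. HIF1A was 33.7 and 30.7 CPM in C12 and C15 and 58.2 and 57.4 CPM in S04 and S36, against 28.1 to 32.6 CPM in wild-type clones. Set against wild type, HIF1A had a log2 fold change of 0.064 for C-named clones, with an edgeR adjusted p of 0.906. For S-named clones it was 0.90, with an edgeR adjusted p of 0.00512. The S-named comparison called 14.5% of all genes and the C-named comparison 0.0395%. The C-named minus S-named difference of HIF1A was -0.84, with an edgeR adjusted p of 0.0633 that missed the threshold.

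The members did not share a single profile over the 8 clones. As a description of log2 CPM, the closest pairs of members were S1PR1 with ITGAL (Pearson 0.894), CCR9 with SELPLG (0.798) and S1PR1 with ITGA4 (0.783). The 8 points of each pair come from the same libraries and share their depth, C15 included. The 3 members with the largest SD over the clones were then compared with 9445 genes of at least 1 CPM on average. For S1PR1 the most alike were DLEU2 (0.993), EIF1AD (0.992) and GCH1 (0.991), and 395 genes exceeded 0.9. DLEU2 was 12.8, 6.06, 18.8 and 7.03 CPM in C12, C15, S04 and S36, against 11.5, 13.8, 13.02 and 11.6 CPM in WT10, WT13, WT28 and WT30. It was thus highest in S04 and lowest in C15 and S36, as S1PR1 was. For CCR7 the most alike were PUSL1 (0.948), RETN (0.946) and ALKBH4 (0.937), with 15 genes above 0.9, and for CCR9 they were KBTBD6 (0.972), PDLIM7 (0.971) and SRPK1 (0.967), with 20 above 0.9.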

How the data were processed

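RNA sequencing counts of 8 clones were used as the authors deposited them: raw whole-number counts per gene symbol, with no normalization. The build was hg38 and the tools were TopHat2, Subread, SAMtools and FastQC, per the submitters' processing notes. No source used here gives their roles, the annotation or the strand setting. No paired or batch label was given. Of 61228 symbols, 56939 matched GENCODE release 29, which gave positions and lengths, and promoter windows came from RefSeq (GRCh38.p14).

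Genes were filtered with filterByExpr by group, scaled by TMM and tested two-sided by quasi-likelihood in edgeR (version 4.0.16, under R 4.3.3). P-values were adjusted by Benjamini-Hochberg over every tested gene, with 0.05 as the threshold. DESeq2 1.42.0 and limma-voom (limma 3.58.1) were alternatives, beside other scalings, no filter, thinning to the shallowest library, C-named or S-named knockout clones alone, chromosome offsets, and each clone left out. Log2 CPM used a prior count of 2, and subunit ratios added 0.5 to each count. The gene tests were tested on simulated data. Pairs of libraries differed by a chi-square per degree of freedom of at least 29.5 among knockout and 13.8 among wild-type clones, so none was taken for a copy.

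All 9 members are named, then of each pathway list the genes past the threshold and otherwise the 4 with the smallest p, and the 3 genes most like each of the 3 most variable members. S1PR1-DT and KLF2, set beside S1PR1 after their values had been seen, are outside this rule. Also outside it are NKX2-1, ITGB1P1, ITGB1-DT, ITGB2-AS1, S1PR4 and the lineage markers other than PECAM1. 1 gene that the rule picks is left out here. The members and lists were chosen with earlier results of these data known. The labels name separate clones but no separate cultures or days, and the p-values reflect only how far these libraries differ, which may in part be technical. No protein sequences were used here.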

Additional observations from a re-analysis of the deposited data

Results flagged for a closer look

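Of 66 groups of 4 clones tried, 3 had a clone far from the rest, where chance gives about 3.3. S1PR5 had a log2 CPM of -3.13 in the knockout clone C15, which held 0 counts, with a floor of 1.21 CPM for 3 counts, against 2.20, 3.20 and 3.90 CPM in C12, S04 and S36. GALNT1 had a log2 CPM of 6.38 in the knockout clone S36, or 83.1 CPM, far above the 48.8 to 50.7 CPM of the other knockout clones. GALNT1 also had a log2 CPM of 3.35 in the wild-type clone WT28, or 10.1 CPM, far below the 27.8 to 32.5 CPM of the other wild-type clones.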

How the results depend on the processing

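No paired analysis was possible because the clone names share no replicate numbers between groups. Between knockout and wild-type clones 45 genes were called, against 29 with library totals only, 581 with no filter, 521 with DESeq2, 94 with limma-voom, 6 after thinning, 6 for C-named clones alone, 2211 for S-named clones alone and 3 to 456 with a clone left out, the highest without C12. Members called were 0, against 1 with no filter, with DESeq2 and with limma-voom, 3 for S-named clones alone and 0 to 2 with a clone left out. With no filter the CXCR4 log2 fold change was -0.82, with an edgeR adjusted p of 0.00398. Its log2 fold change was -0.84 to -0.67 with a clone left out, and its edgeR adjusted p missed the threshold at 0.0587 to 0.258 without any clone other than C12. Between C-named and S-named clones 51 genes were called, against 14 with RLE factors, 15 with library totals only, which moved the median of all genes to -0.19 from -0.05, 762 with no filter, 651 with DESeq2, 89 with limma-voom and 0 to 749 with a clone left out. The edgeR count was 0 without each wild-type clone, where 1971 to 2095 genes had an unadjusted p under 0.05, and 749 without C12. Members called there were 0, against 1 with no filter (ITGB2) and 0 to 1 with a clone left out. Signs turned for S1PR1 (0.054 with library totals, 0.30 for S-named clones, -0.85 to 0.29 with a clone left out), SELPLG (0.033 after thinning, 0.13 for S-named clones, -0.35 to 0.10), ITGA4 (0.13 with chromosome offsets) and ITGAL (-0.51 to 0.056). They also turned for KLF2 (-0.030 for C-named clones, -0.20 to 1.49 with a clone left out) and S1PR1-DT (-0.21, -0.43 to 0.47). The ITGAL/ITGB2 difference was 0.0027 with a prior count of 2 and -0.44 to 0.30 with a clone left out, and the ITGA4/ITGB1 difference was -0.84 to -0.31. After thinning, CCR7, GPR183, ITGA3, CD226, RGS16, RGS2 and PRDM1 were not among the 9846 tested genes. The cause of these differences was not tested. Where C15 held few counts (CCR7, ITGAL, CCR9, SELPLG, S1PR1), depth limits the values.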
